A study of Mus musculus with 8 samples.

Results

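The 9 genes described here were followed in cultured mouse cardiac fibroblasts. They act in extracellular proteolysis or, as Serpinf1, belong to a family of protease inhibitors. They are the 4 tissue inhibitors of metalloproteinases (Timp1, Timp2, Timp3 and Timp4), the serpin family genes Serpine2 and Serpinf1, the plasminogen activators Plat and Plau, and the urokinase receptor Plaur. They were taken by symbol from a deposited table of raw counts for 55414 Ensembl genes. Their identifiers there are ENSMUSG00000001131 (Timp1), ENSMUSG00000017466 (Timp2), ENSMUSG00000020044 (Timp3), ENSMUSG00000030317 (Timp4), ENSMUSG00000026249 (Serpine2), ENSMUSG00000000753 (Serpinf1), ENSMUSG00000031538 (Plat), ENSMUSG00000021822 (Plau) and ENSMUSG00000046223 (Plaur). All 9 genes were in the table, and 8 passed the filter on low counts; Timp4 did not.

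The cells were fibroblasts from hearts of C57BL/6J mice, infected at passage 2 with an adenovirus carrying Has2, the gene of a hyaluronan synthase, or with a GFP adenovirus as the control. Each virus had 4 libraries, replicates 1 and 2 from females and replicates 3 and 4 from males. All cultures had 24 h without serum, 5 h of virus and then 48 h with basic FGF and TGF-beta, for which the protocol gives 20 ng/mL, so both groups describe growth factor-stimulated cells. The labels name the genotype wild type, while the treatment protocol speaks of Has2 fl/fl mice; which promoter drives the viral Has2 is not given in the sources used here. Both libraries of a replicate number share the first part of their library name, read here as one cell preparation, so the Has2 and GFP viruses were compared within pairs. Whether each preparation was a different animal is not stated, and the p-values reflect the spread among these samples alone, which may be technical.

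TIMPs are small secreted proteins that block matrix metalloproteinases and related ADAM and ADAMTS proteases, and they set how fast collagen and other matrix proteins are cut. The plasminogen activators Plat (tissue type) and Plau (urokinase) cut plasminogen into plasmin, a broad serine protease that can also activate some metalloproteinases. Plaur holds urokinase at the cell surface, and serpins such as Serpine2 inactivate the activators. In the heart, fibroblasts are a main source of matrix and of many of these regulators.

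Between 46981231 and 55795187 reads were counted per library. Has2, the check of the labels, had 9533, 8406, 3209 and 4860 CPM with the Has2 virus (CPM, counts scaled by effective library size; replicates 1 to 4 in order here and in all such sentences), against 25.2, 7.36, 18.3 and 21.3 CPM with the GFP virus. It was the 1 gene of 15150 called by edgeR's quasi-likelihood test with the replicate number as a block (log2 fold change 8.46, SE 0.55, adjusted p = 0.0226). All 10 fibroblast markers, such as Col1a1 and Pdgfra, stood above 1 CPM in every library. The 10 macrophage markers did too, and their summed level was 852 to 2304 CPM in the Has2 libraries and 894 to 2200 CPM in the GFP libraries. Of the 6 cardiomyocyte markers Myh6, Actn2 and Nppa had at most 3 counts in any library, and Ryr2 at most 5. Tnnt2 had 180 to 471 counts and Tnni3 19 to 48. Summed endothelial markers ran from 24.5 to 47.1 CPM over the 8 libraries, and smooth muscle and pericyte markers from 48.7 to 97.2 CPM. Mesothelial markers summed to 2.00 to 5.56 CPM. GFP replicate 1 also held liver-type transcripts: 6 hepatocyte markers summed to 628 CPM there and to at most 1.97 CPM in any other library.

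To show how the genes of one family differ before their starts, and with them the receptor Plaur, the 250 bases before the annotated start of the 4 TIMP genes and of Plaur are given here, 5′ to 3′ on the gene's own strand, from RefSeq on GRCm38.p6. The deposited counts are on the later build GRCm39. Capitals mark the GC box GGGCGG, the AP-1 motif TGANTCA and the TATA box TATAAA, each searched on both strands, with overlapping matches counted separately.
Timp1 (chrX:20869916-20870165, + strand): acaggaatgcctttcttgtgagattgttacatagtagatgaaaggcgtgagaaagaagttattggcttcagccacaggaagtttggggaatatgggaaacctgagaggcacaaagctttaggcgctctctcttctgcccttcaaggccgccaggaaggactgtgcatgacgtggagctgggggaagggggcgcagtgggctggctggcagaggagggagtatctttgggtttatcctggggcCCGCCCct
Timp2 (chr11:118355412-118355661, - strand): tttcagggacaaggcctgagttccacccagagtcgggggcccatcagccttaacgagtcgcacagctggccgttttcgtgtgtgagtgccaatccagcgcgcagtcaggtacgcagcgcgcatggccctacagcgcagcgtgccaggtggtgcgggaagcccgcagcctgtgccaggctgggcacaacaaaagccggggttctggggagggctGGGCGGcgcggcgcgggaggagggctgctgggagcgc
Timp3 (chr10:86300162-86300411, + strand): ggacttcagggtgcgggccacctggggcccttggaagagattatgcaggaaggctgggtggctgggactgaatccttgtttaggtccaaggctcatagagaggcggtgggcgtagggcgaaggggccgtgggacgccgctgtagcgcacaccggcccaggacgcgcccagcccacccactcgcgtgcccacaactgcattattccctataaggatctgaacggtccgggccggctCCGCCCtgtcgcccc
Timp4 (chr6:115252206-115252455, - strand): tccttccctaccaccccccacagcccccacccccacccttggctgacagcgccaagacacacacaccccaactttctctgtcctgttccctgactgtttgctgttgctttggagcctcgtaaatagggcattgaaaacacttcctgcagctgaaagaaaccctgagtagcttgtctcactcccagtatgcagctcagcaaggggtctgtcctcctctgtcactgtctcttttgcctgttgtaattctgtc
Plaur (chr7:24462233-24462482, + strand): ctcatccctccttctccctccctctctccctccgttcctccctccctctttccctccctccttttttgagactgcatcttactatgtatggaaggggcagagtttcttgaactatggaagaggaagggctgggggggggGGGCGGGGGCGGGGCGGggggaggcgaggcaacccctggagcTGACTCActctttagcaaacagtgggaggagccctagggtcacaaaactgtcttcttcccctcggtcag
A GC box was found in the windows of Timp1, Timp2 and Timp3, beginning 8, 37 and 15 bases before the start, and not in that of Timp4. The window of Serpinf1, not printed here, held 0 GC boxes and 2 CpG, and that of Serpine2, with a lower level per kb, held 6 GC boxes and 34 CpG. Plaur had 3 GC boxes, beginning 111, 105 and 100 bases before the start, and 1 AP-1 motif that begins 69 bases before the start. Of the 32851 RefSeq windows of this length 32.7% held a GC box, 6.75% the AP-1 motif and 12.4% a TATA box, which none of these 5 windows had. The windows held 6 (Timp1), 21 (Timp2), 18 (Timp3), 2 (Timp4) and 6 (Plaur) CpG dinucleotides, against a median of 6 over all windows. A match is a description of the letters and not evidence of binding.

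Timp1, Timp3 and Timp4 each lie within a synapsin gene that runs on the opposite strand (Syn1, Syn3 and Syn2, GENCODE M21). Timp1 shared 0 exon bases with Syn1, Timp3 shared 21.3% of its exon bases with Syn3, and Timp4 1.53% with Syn2. The library kit keeps strand, but the strand setting of the counting is not given in the sources used here. The counts assigned to Syn3 were 479, 56, 55 and 47 in the Has2 libraries and 552, 216, 84 and 33 in the GFP libraries. Those assigned to Timp3 were 128635, 84410, 44947 and 34192 in the Has2 libraries and 98948, 54919, 41353 and 37082 in the GFP libraries.

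Per kb of the longest annotated transcript, which may not be the one these cells make, Timp1 was the highest of the 9 genes in every library. Its level was 5813 ± 1210 CPM per kb with the Has2 virus and 6137 ± 1691 CPM per kb with the GFP virus (SD, n = 4, as for the levels per kb that follow). Serpinf1, which encodes the antiangiogenic pigment epithelium-derived factor, had 688 ± 98.3 and Timp2 608 ± 85.8 CPM per kb with the Has2 virus, against 636 ± 142 and 561 ± 95.5 CPM per kb with the GFP virus. These 2 neighbours overlapped in range, and so did Timp3 and Serpine2 below them. Timp3 had 295 ± 162 and Serpine2 212 ± 49.5 CPM per kb with the Has2 virus, against 258 ± 131 and 221 ± 41.4 CPM per kb with the GFP virus. Plat followed at 68.3 ± 10.2 CPM per kb with the Has2 virus and 69.0 ± 4.61 CPM per kb with the GFP virus, below every value of Serpine2. Plaur and Plau stood lowest and overlapped each other, with 15.3 ± 7.24 and 12.3 ± 5.42 CPM per kb with the Has2 virus and 15.6 ± 4.21 and 13.02 ± 5.13 CPM per kb with the GFP virus. Timp4 had 0 counts in 7 libraries and 1 count in GFP replicate 2; at this depth a count of 0 allows up to 3 counts per library, by counting error alone.

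**Figure D1:**
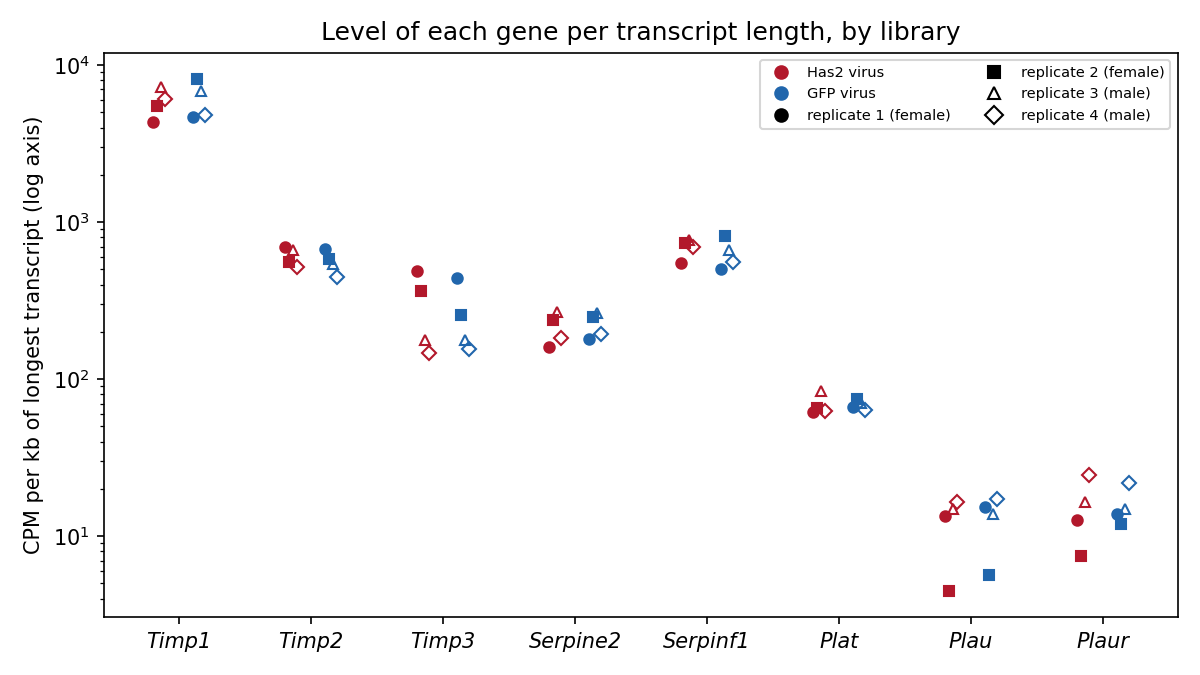
Level of the 8 tested genes in CPM per kb of the longest GENCODE M21 transcript (log axis), 1 point per library, with Has2 virus libraries left of GFP virus libraries and filled symbols for females. Timp1 lies above all others in every library, replicate 2 is low in Plau in both groups, and Timp3 is higher in both female pairs than in both male pairs.

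Timp1 made up 78.6% to 90.8% of the summed TIMP level per kb across the 8 libraries. The summed TIMP level per kb was 5.05, 3.67, 4.90 and 4.99 times that of the 23 listed metalloproteases in the Has2 libraries, against 5.08, 4.78, 4.55 and 3.99 times in the GFP libraries. The values of the 2 groups overlapped. The 23 proteases were led by Mmp3 (stromelysin-1), at 768 ± 208 CPM per kb with the Has2 virus and 832 ± 256 CPM per kb with the GFP virus, named after its values were seen, followed by the gelatinase Mmp2 and the membrane-bound Mmp14. Mmp2 had 241 ± 61.3 and Mmp14 207 ± 30.1 CPM per kb with the Has2 virus, against 225 ± 48.3 and 205 ± 20.4 CPM per kb with the GFP virus. Their ranges overlapped, and in both libraries of replicate 1 Mmp14 was above Mmp2. The level per kb of Plat was 4.60, 14.6, 5.63 and 3.77 times that of Plau in the Has2 libraries and 4.34, 13.2, 5.15 and 3.70 times in the GFP libraries. It was highest in both libraries of replicate 2, in which Plau was low.

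The first comparison asks whether any of these genes changes when the cells are made to express Has2. None of the 8 tested genes passed edgeR's test with the replicate block, and 0.0066% of all 15150 genes did. At an unadjusted p under 0.05 there were also 0 of 8, beside 7.49% of all genes. Without the block 0 of 8 passed at an adjusted p (0.0066% of all genes) and 0 of 8 at an unadjusted p (2.56%). The same count was 0 of 8 at an adjusted p under 0.05 with DESeq2 and the block, which called 0.403% of all genes, and with limma-voom, which called 0.0066%. After removal of the GC and length trend described below 0 of 8 passed at an adjusted p (0.0132% of all genes) and 1 of 8, Timp3, at an unadjusted p (10.5%). The log2 fold changes of the 8 genes ran from -0.12 to 0.15, with a median of -0.04, beside -0.02 over all genes tested; with that trend removed these medians were 0.05 and 0.01. The 95% interval of each of the 8 lay within 1.5-fold in either direction in the blocked fit. No member had groups that did not overlap (2.38% of all genes did), and no member moved the same way in all 4 pairs (17.1% of all genes did). In bulk RNA, fewer cells of a type and less RNA per cell cannot be told apart.

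**Figure D2:**
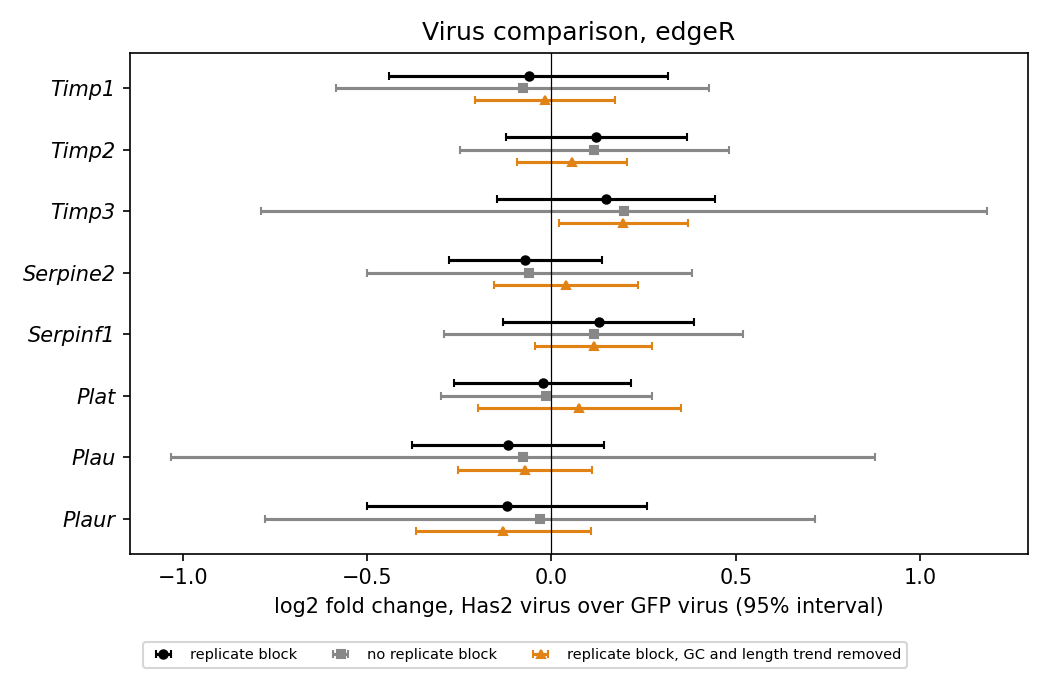
Log2 fold change of each tested gene, Has2 virus over GFP virus, with the 95% interval from edgeR, for the fit with the replicate block, without it, and with the block after removal of the GC and length trend. In the blocked fit all 8 intervals include 0 and lie within 1.5-fold; without the block the intervals of Timp3, Plau and Plaur are the widest.

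Among the inhibitors of metalloproteases, Timp1 had 3859, 4879, 6430 and 5363 CPM with the Has2 virus, against 4126, 7248, 6025 and 4277 CPM with the GFP virus. The groups overlapped, and the 2 female pairs were lower and the 2 male pairs higher with the Has2 virus. In the blocked fit Timp1 had a log2 fold change of -0.06, with an SE of 0.16, a 95% interval of -0.44 to 0.32 and an edgeR adjusted p of 0.931.

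Timp2, which inhibits metalloproteases and also takes part in the activation of Mmp2, had 2589, 2064, 2453 and 1914 CPM with the Has2 virus, against 2507, 2151, 2011 and 1652 CPM with the GFP virus. It was higher with the Has2 virus in 3 of 4 pairs, and the groups overlapped (log2 fold change 0.12, SE 0.10; 95% interval -0.12 to 0.37; edgeR adjusted p = 0.73). Timp3, the TIMP that binds to the matrix, had 2311, 1732, 835 and 696 CPM with the Has2 virus, against 2091, 1203, 837 and 734 CPM with the GFP virus. Both female pairs were higher with the Has2 virus, and the male pairs differed by at most 0.08 on the log2 scale. For Timp3 the fit gave 0.15 on the log2 scale, with an SE of 0.12, a 95% interval of -0.15 to 0.44 and an edgeR adjusted p of 0.729. Once GC and length were corrected for it was 0.19 (edgeR unadjusted p = 0.0334, adjusted p = 0.449).

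**Figure D3:**
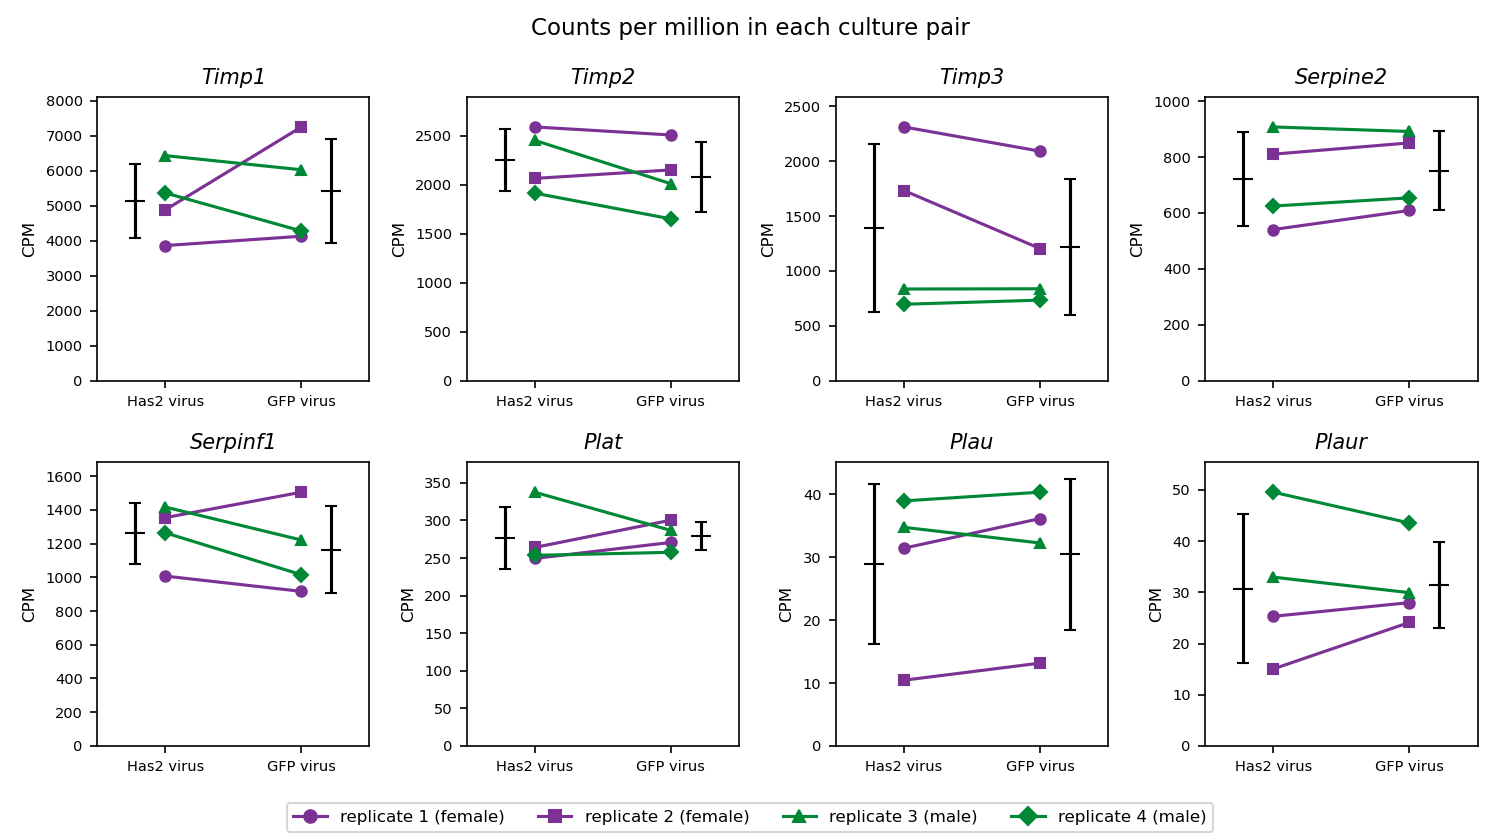
CPM of each tested gene in the Has2 library (left) and the GFP library (right) of each pair, with lines joining the pairs and the group mean ± SD beside each group (n = 4). Lines of Timp1 and Plaur run in opposite directions in female and male pairs, and those of Serpine2 are nearly flat.

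Of the serpins, Serpine2 (protease nexin-1, an inhibitor of thrombin and of plasminogen activators) had 541, 810, 908 and 625 CPM with the Has2 virus, against 609, 851, 892 and 654 CPM with the GFP virus. The 2 groups overlapped almost fully, and the largest difference within a pair was 0.17 on the log2 scale (log2 fold change -0.07, SE 0.09; edgeR adjusted p = 0.821). Serpinf1, whose product does not inhibit proteases, had 1007, 1354, 1417 and 1264 CPM with the Has2 virus, against 917, 1505, 1221 and 1016 CPM with the GFP virus. It was higher in 3 of 4 pairs and lower in the pair of replicate 2 (log2 fold change 0.13, SE 0.11; 95% interval -0.13 to 0.39; edgeR adjusted p = 0.73).

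Plat had 249, 264, 338 and 254 CPM with the Has2 virus, against 271, 300.4, 287 and 258 CPM with the GFP virus. It varied least of the 8 genes, with a highest library 1.35 times the lowest, and Has2 replicate 3 stood above the other Has2 libraries (log2 fold change -0.02, SE 0.10; 95% interval -0.26 to 0.22; edgeR adjusted p = 0.961). Plau had 31.4, 10.4, 34.8 and 39.0 CPM with the Has2 virus, against 36.1, 13.2, 32.3 and 40.3 CPM with the GFP virus. Both libraries of replicate 2 were low, and the largest difference within a pair was 0.29 on the log2 scale (log2 fold change -0.12, SE 0.11; 95% interval -0.38 to 0.14; edgeR adjusted p = 0.754). Plaur had 25.3, 15.04, 33.0 and 49.6 CPM with the Has2 virus, against 28.0, 24.1, 29.9 and 43.5 CPM with the GFP virus. As for Timp1, the female pairs were lower and the male pairs higher with the Has2 virus (log2 fold change -0.12, SE 0.16; 95% interval -0.50 to 0.26; edgeR adjusted p = 0.836).

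For several of these genes the spread between preparations was larger than the differences within pairs. The SD between the 4 preparations, each taken as the mean log2 level of its 2 libraries, was 4.06 times the root mean square difference within pairs for Plau, 3.09 times for Serpine2 and 2.70 times for Timp3. It was 0.804 times for Plat and 0.883 times for Timp1. The 2 measures carry library noise to different degrees, so a ratio under 1 does not show that the viruses differed more. The highest Timp3 library of a male, at 837 CPM, lay below the lowest of a female, at 1203 CPM. In Plaur the order was turned, with 29.9 to 49.6 CPM in males and 15.04 to 28.0 CPM in females. The libraries of the sexes did not overlap in 2 of 8 members, beside 12.9% of all genes tested. Each sex had 2 preparations, and their names begin with S for females and R for males, so the effects of sex and of preparation cannot be told apart. The summed macrophage markers were also lowest in replicate 2, at 852 CPM in the Has2 library and 894 CPM in the GFP library, against 1584 to 2304 CPM in the other 6 libraries. Macrophages are known to express Plau and Plaur, and the part of these cells in the Plau and Plaur levels was not tested.

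The second comparison asks whether the change with the Has2 virus differed between male and female pairs. Has2 itself rose less in male pairs, with a difference of -1.66 (edgeR adjusted p = 0.00844). The effects of sex, of preparation and of the Has2 level reached therefore cannot be told apart. With the replicate block edgeR called Timp1 and Plaur, 2 of the 8 members, while it called 29.5% of all genes, so the members' share is close to that of the whole table. Timp1 had a log2 fold change of 0.21 (SE 0.13) in male pairs and -0.33 (SE 0.13) in female pairs, a difference of 0.54 (SE 0.18; edgeR adjusted p = 0.0428). Plaur had 0.16 (SE 0.12) in male pairs and -0.40 (SE 0.12) in female pairs, a difference of 0.57 (SE 0.17; edgeR adjusted p = 0.0274). Without the block the differences were 0.58 for Timp1 and 0.54 for Plaur (edgeR adjusted p = 0.599 and 0.638), and edgeR called 0 of 15150 genes (2014 at an unadjusted p under 0.05). Without the pair of replicate 2 the difference was 0.31 for both genes (edgeR adjusted p = 0.253 for Timp1 and 0.13 for Plaur), and without replicate 1 it was 0.80 for Timp1 and 0.86 for Plaur (edgeR adjusted p = 0.00408 and 6.9e-05). Without replicate 3 it was 0.66 and 0.60 (edgeR adjusted p = 0.0726 and 0.0777), and without replicate 4 it was 0.46 and 0.58 (edgeR adjusted p = 0.217 and 0.0794). Both genes were called without replicate 1 and neither without any of the other pairs.

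Of the other members, Timp3 was the 1 with a lower fold change in male pairs, at -0.04 (SE 0.11) in male and 0.34 (SE 0.11) in female pairs. This difference had an edgeR adjusted p of 0.0926, and of 0.0147 without replicate 1. Timp2 and Serpinf1 had 0.25 (SE 0.10) and 0.27 (SE 0.10) in male pairs and -0.01 (SE 0.10) for both in female pairs (edgeR adjusted p of the difference = 0.183 and 0.185). Plat had 0.11 (SE 0.09) in male and -0.15 (SE 0.09) in female pairs, and Plau 0.03 (SE 0.09) in male and -0.26 (SE 0.10) in female pairs (edgeR adjusted p = 0.172 and 0.126). Serpine2 had the smallest difference, 0.10 (SE 0.13; edgeR adjusted p = 0.609).

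**Figure D4:**
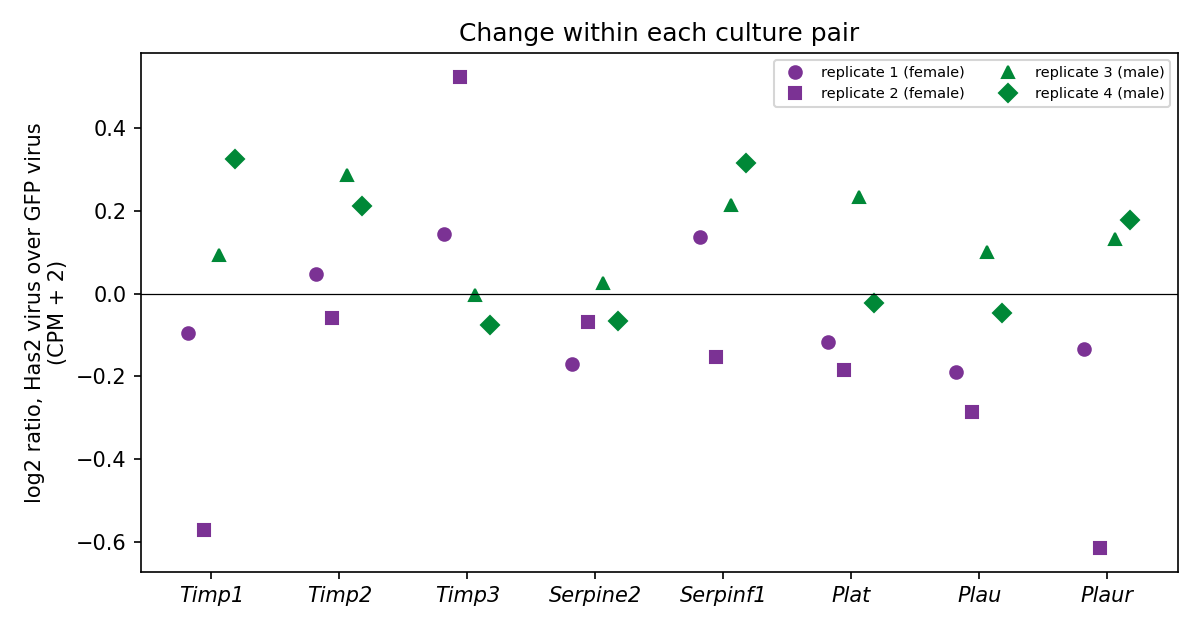
Log2 ratio of the Has2 library over the GFP library of the same pair for each tested gene (CPM plus a pseudocount of 2), with purple for female and green for male pairs. The pair of replicate 2 holds the lowest values of Timp1 (-0.57) and Plaur (-0.62) and the highest of Timp3 (0.52).

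Across the whole table the change within a pair varied with the GC content and the length of transcripts, in opposite senses in male and female pairs. Taken over genes, whose values are not independent, the rank correlation (Spearman) of GC content with the log2 ratio of a pair reached 0.69 (replicate 3) and 0.66 (replicate 4) for males, against -0.24 (replicate 1) and -0.19 (replicate 2) for females. With transcript length it was -0.10 (replicate 3) and -0.37 (replicate 4) for males, against 0.28 (replicate 1) and 0.53 (replicate 2) for females. Both were removed together, so their parts in what follows were not told apart. The longest transcripts of Timp1 and Plaur have 52.8% and 53.0% GC and that of Timp3 46.8%. Those of Timp2 and Serpinf1 have more, 53.7% and 54.4%, with smaller differences between the sexes as counted, 0.26 and 0.27. That of Plau has 48.3%, with a difference of 0.29. With a smooth trend of GC and transcript length removed from every library, the difference between the sexes fell to 0.13 for Timp1 and 0.26 for Plaur (edgeR adjusted p = 0.622 and 0.334), and that of Timp3 was -0.12 (edgeR adjusted p = 0.604). In that fit Plat was the 1 member called, with 0.34 in male and -0.19 in female pairs (difference 0.53, edgeR adjusted p = 0.0196), beside 10.6% of all genes. As counted, the log2 ratio of Plat was -0.12, -0.18, 0.23 and -0.02 in replicates 1 to 4. Leaving out pairs was not repeated with the trend removed. The transcript of Plat has 45.8% GC, as low as that of Serpine2 (45.7%), whose difference became 0.32 (edgeR adjusted p = 0.0993). Timp1 and Plaur were not called in that fit.

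**Figure D5:**
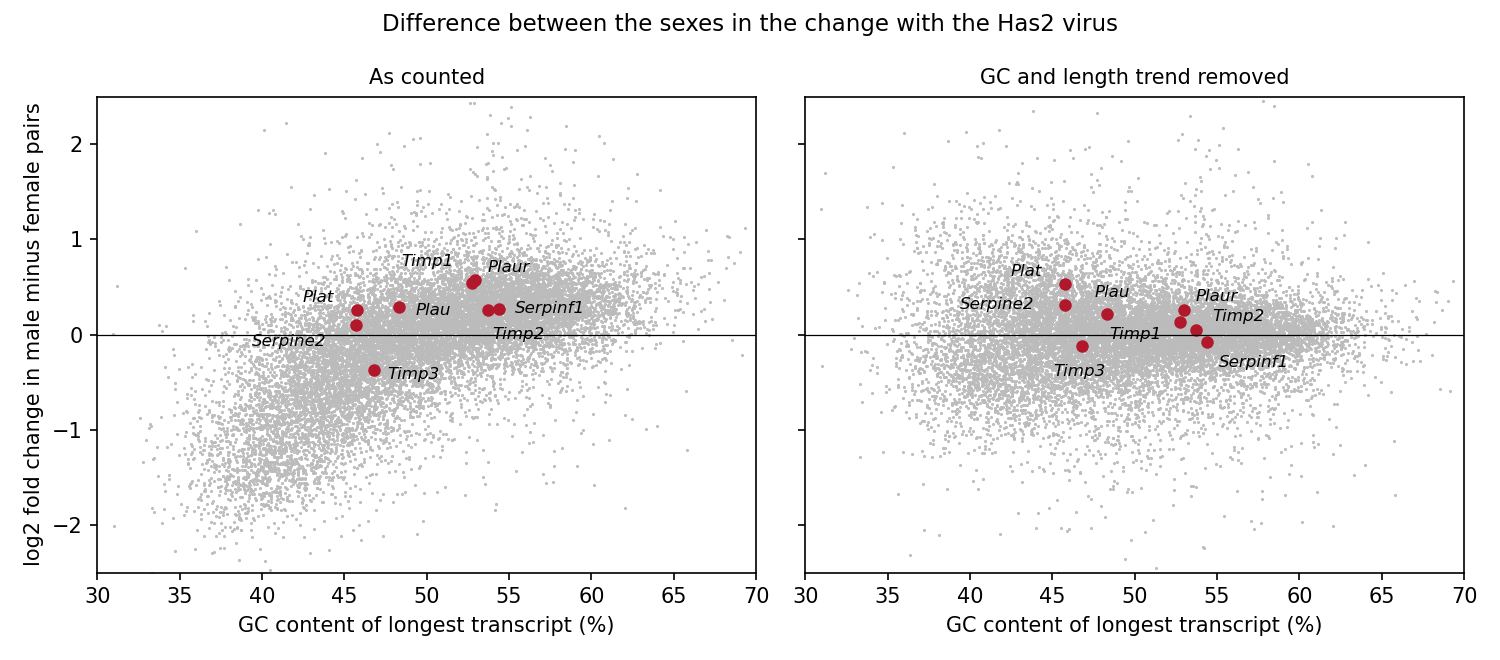
Difference of the log2 fold change, male minus female pairs, against GC content of the longest transcript for all genes tested (grey; values outside the axes are not drawn) and the 8 members (red), as counted (left) and after the GC and length correction (right). On the left the grey points climb with GC and Timp1 and Plaur lie at 0.54 and 0.57; on the right they lie at 0.13 and 0.26, and Plat is the highest member at 0.53.

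The change within pairs of Timp1 was most like that of Fbl (fibrillarin, of the nucleolus) and Eef1b2 (a translation elongation factor), with root mean square differences of 0.03 and 0.05 on the log2 scale over the 4 pairs. That of Plaur was most like those of Clic1 and Apex1, at 0.07 each. These were the nearest of 6924 genes with a mean of at least 20 CPM outside the lists. Only 4 ratios per gene were compared, and such ratios varied with GC content across the whole table. Shared regulation was not tested.

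None of the listed genes around the members was called in the virus comparison. Of 22 tested metalloproteases that TIMPs inhibit 13 had positive and 9 negative log2 fold changes (median 0.01), and 1, the collagenase Mmp13, had an unadjusted p under 0.05. Mmp13 had 4.78, 4.10, 2.12 and 3.99 CPM with the Has2 virus, against 1.16, 1.29, 1.86 and 2.47 CPM with the GFP virus. It was higher in all 4 pairs, with groups that overlapped only between Has2 replicate 3 and GFP replicate 4 (log2 fold change 1.13, SE 0.32; edgeR unadjusted p = 0.00971, adjusted p = 0.648; after the GC and length correction 1.44, adjusted p = 0.151). The 10 tested plasminogen system genes had a median of -0.04 and the 18 other protease inhibitors -0.07, with 10 and 10 negative values. At an unadjusted p under 0.05 edgeR had 1 of the 10 and 5 of the 18, beside 7.49% of all genes. Among these inhibitors Tfpi2 and Serpinb6a, named after their values were seen, were lower in all 4 pairs. Tfpi2 had 16.6 ± 1.73 CPM with the Has2 virus and 22.2 ± 0.877 CPM with the GFP virus. Serpinb6a had 479 ± 37.5 and 588 ± 75.4 CPM (SD, n = 4). Serpina3n, also named after its values were seen, was higher in all 4 pairs, by 0.34 to 0.48 on the log2 scale. Other inhibitors also moved 1 way in all 4 pairs: Serpina3g, Spock2 and A2m higher, and Serpinb8, Serpini1 and Spint1 lower. Of all genes tested 17.1% did so. Plg, the gene of plasminogen, had 15.2 CPM (720 counts) in GFP replicate 1 and at most 1 count in any other library; that library also held the hepatocyte markers given above.

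Of the 12 tested clearance and binding receptors 7 had positive values (median 0.02). Lrp1, the scavenger receptor that takes up complexes of proteases with serpins and with TIMPs, had 1931, 2270, 2381 and 2042 CPM with the Has2 virus, against 1858, 1492, 1665 and 2007 CPM with the GFP virus. It was higher in all 4 pairs, by 0.02 to 0.60 on the log2 scale (log2 fold change 0.30, SE 0.13; edgeR adjusted p = 0.648; after the GC and length correction 0.16, adjusted p = 0.523). Reck, a membrane-anchored inhibitor of metalloproteases, had 65.6 ± 25.5 CPM with the Has2 virus and 57.9 ± 17.7 CPM with the GFP virus (SD, n = 4).

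In the comparison of the sexes 8 of 22 metalloproteases, 6 of 10 plasminogen system genes, 3 of 12 receptors and 4 of 18 other inhibitors were called with the block, beside 29.5% of all genes, and 0 of each list without it. The sheddase Adam10 had a log2 fold change of -0.95 in male and 0.27 in female pairs, and was the 1 metalloprotease called after the GC and length correction (difference -0.51, edgeR adjusted p = 0.0157). The 6 plasminogen system genes were split, with 3 higher and 3 lower in male pairs. Hgf (hepatocyte growth factor), Serpinb2 and F3 (tissue factor) were lower in male pairs, with differences of -1.34, -0.88 and -0.46 (edgeR adjusted p = 0.000299, 0.0021 and 0.0413). Eno1, Anxa2 and S100a10, of which the last 2 encode a complex that binds Plat and plasminogen at the cell surface, were higher, as were Timp1 and Plaur. Anxa2 had 0.23 in male and -0.34 in female pairs, and S100a10 0.32 in male and -0.37 in female pairs; after the trend was removed the differences of Anxa2 and S100a10 were 0.32 and 0.30 (edgeR adjusted p = 0.166 and 0.101), and none of the 6 was called.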

How the data were processed

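RNA of 8 cultures was sequenced with a stranded mRNA library kit, as the labels' protocols state. The deposited values are raw counts for each Ensembl gene, not normalized by the authors; HTSeq 0.10.0, FastQC 0.10.1 and build mm39 (GRCm39) are named in the submitters' processing notes. No source used here gives the aligner, the release of the annotation or how strand was set in counting. Symbols came from GENCODE M21 by identifier (52081 of 55414 matched).

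Counts were tested with edgeR 4.0.16 (R 4.3.3): TMM scaling, default expression filter, quasi-likelihood F-test, replicate number as a block, and a Benjamini-Hochberg adjusted p under 0.05 over all 15150 genes tested. The interaction fitted the virus effect within each sex, with 2 pairs each. The block was used because libraries of one number share the first part of their name. Libraries of a pair also deviated together from their group means (correlations 0.69, 0.60, 0.60 and 0.40, replicates 1 to 4). A difference between the sexes would give such correlations too, so they do not test the pairing. Libraries of a group differed beyond counting noise (chi-square per degree of freedom 45.5 to 368). CPM values use effective library sizes. Depth was 46981231 to 55795187 counts.

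The alternatives were no block, RLE scaling, library totals, scaling without Has2 counts, other filters, DESeq2 1.42.0, limma-voom (limma 3.58.1), removal of a spline trend of GC and log2 length (5 degrees of freedom each), leaving out libraries or pairs, and an adjusted p under 0.1. Leaving out pairs in the interaction was added after seeing the data. The members and the lists were chosen with earlier results of these data known. By rule, the genes named are the members, Has2, Plg, Mmp2, Mmp14, Lrp1 and Reck, and for Timp1 and Plaur the 2 genes closest in their 4 pair ratios. The rule also names every listed gene called by the blocked edgeR fit without trend removal (otherwise those of smallest unadjusted p). One further gene of the rule is not reported here. No p was adjusted over the members alone.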

Additional observations from a re-analysis of the deposited data

Results flagged for a closer look

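Among the members and the genes named in the comparisons, single libraries stood far from the other 3 of their group. Plat was at 338 CPM in Has2 replicate 3 and Mmp14 at 817 CPM in the same library. Plg was at 15.2 CPM and Vtn (vitronectin, a liver-made ligand of Plaur) at 17.6 CPM in GFP replicate 1. Other listed genes were high in that library too: Pzp had 1074 counts there and at most 3 in any other library, Serpinf2 220 and at most 13, Cpb2 122 and at most 2, F12 113 and at most 1, Klkb1 61 and at most 2, and Hgfac 55 and at most 12. The rule used marks about 1 in 20 groups by chance.

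The change with the Has2 virus differed between the sexes, as a log2 fold change in male minus female pairs from the blocked edgeR fit, by 0.54 for Timp1 and 0.57 for Plaur among the members. Has2 itself differed by -1.66. The blocked fit called 29.5% of all genes in this comparison, and without the block edgeR called 0. The effects of sex, of preparation and of the Has2 level reached cannot be told apart. Among metalloproteases the difference was -0.59 for Mmp12, -1.40 for Mmp13, -0.54 for Mmp16, 0.59 for Mmp23, -1.21 for Adam10, -0.65 for Adam17, -0.48 for Adamts1 and -1.12 for Adamts5. Among plasminogen system genes it was -0.88 for Serpinb2, -0.46 for F3, 0.57 for Anxa2, 0.69 for S100a10, 0.61 for Eno1 and -1.34 for Hgf. Among receptors it was -0.45 for Vldlr, -0.87 for Itgav and 0.40 for Itgb5, and among other inhibitors -0.51 for Serpinb9, -0.91 for Serpini1, 0.60 for Cst3 and -0.84 for Tfpi. With the GC and length trend removed Adam10 was the 1 of these 24 genes still called. In that fit 2 of the 18 other protease inhibitors, not among these 24, were also called, higher in male pairs. The share of all genes called there was 10.6%.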

How the results depend on the processing

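In the virus comparison 0 members were called under each of the 23 alternatives run. Of all genes edgeR called 1 with the block; with library totals it called 0, with no expression filter 118, with the GC and length trend removed 2, and DESeq2 called 61 with the block and 7 with no replicate block; leaving out libraries or pairs gave 0 to 1. In the sex comparison edgeR called 4470 genes and 2 members with the block, 0 genes and 0 members with no replicate block, and 1610 genes and 1 member with the trend removed; DESeq2 with no replicate block called 675 genes and 0 members; leaving out each pair gave 2353 to 4972 genes and 0 to 3 members. The 3 members without replicate 1 included Timp3.

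Signs changed only in values that were not called in that alternative. In the virus comparison Plat was at 0.0037 with scaling without Has2 counts, 0.0038 with no expression filter, 0.0025 with DESeq2 and no replicate block and 0.075 with the trend removed, and Serpine2 at 0.040 with the trend removed. Leaving out libraries or pairs gave -0.205 to 0.11 for Timp1, -0.14 to 0.62 for Timp3, -0.19 to 0.079 for Serpine2, -0.12 to 0.053 for Plat, -0.33 to 0.20 for Plau and -0.36 to 0.20 for Plaur; Timp2 and Serpinf1 kept their sign. With the trend removed the difference between the sexes was -0.075 for Serpinf1, 0.26 for Mmp12, 0.21 for Mmp16, 0.32 for Vldlr, 0.071 for Serpinb9, 0.13 for Serpini1 and 0.0023 for Tfpi. The cause was not tested. With 4 pairs, exact paired permutation tests cannot give a p below 0.125, so none is used here.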
